A study of Saccharomyces cerevisiae with 6 samples.

Results

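The mitochondrial ribosomal protein genes were compared between a β-carotene-producing budding yeast and its parent. They were chosen by name alone, as every gene called MRPL, MRPS, RSM or MRP followed by a number. The rule found 66 genes among the 6445 listed, with 34 named MRPL, 20 named MRPS or RSM and 12 named MRP with a number only. RefSeq product names place 37 of the 66 in the large subunit of the mitochondrial ribosome and 27 in the small one. The remaining 2, MRP8 and RSM22, match the rule by name but carry no subunit annotation.

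The producer carries the genotype label CrtI/E/YB, which refers to genes of carotenoid synthesis, and the parent is CEN.PK2-1C, labelled WT, a haploid laboratory strain of Saccharomyces cerevisiae. The labels give neither the promoters of the introduced genes nor where they were placed. Both were cultured for 18 h in YPD, which is rich and contains glucose, at 30 °C with shaking at 250 rpm. Total RNA came from cell pellets, and stranded mRNA libraries were sequenced on the DNBSEQ platform, with 3 libraries of the producer and 3 of the parent. The study asked how host transcription differs between the strains, and the introduced genes themselves were not analysed here.

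Mitochondria hold their own ribosomes, which translate the few mRNAs encoded by mitochondrial DNA, nearly all of them core subunits of the respiratory chain and ATP synthase. Nearly all of the yeast mitochondrial ribosomal proteins are encoded in the nucleus, made in the cytosol and imported, and they are assembled with mitochondrial rRNA into a large subunit, which forms peptide bonds, and a small subunit, which reads the mRNA. Some are shared with all ribosomes (universal), some only with bacterial ones, and some exist only in mitochondria. In yeast the RNA-binding protein Puf3 is known to bind a short element after the coding sequence of many of these mRNAs, and it takes part in their decay and in their placement at the mitochondrial surface.

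The Puf3 element TGTANATA, where N is any base, was searched on the coding strand within 200 bases after each stop codon. All 64 annotated subunits had at least 1 element, and MRP8 and RSM22 were the 2 of the 66 genes with none. Among all 6001 yeast genes with such a window, 843 (14.0%) had one, and among the 5935 outside the 66 genes, 779 (13.1%). On the opposite strand of the same windows the element was found in 13 of the 66 genes (19.7%), against 784 of 5924 tested genes (13.2%). The following 30-base sites show the element in genes described below. All producer libraries lay above the parental ones for MRP20 and MRPL1 and below them for MRP2 and RSM27. RSM10 was the most abundant annotated subunit per length, MRPS12 and RSM19 are neighbours on chromosome XIV, and RSM19 alone held 3 elements. Each is written 5′ to 3′ on the coding strand, with the element in capitals, from the RefSeq R64 assembly of the reference strain S288C. The sequence of CEN.PK2-1C itself was not read.
MRP20 (chrIV:1278499-1278528, plus strand): cccctcacactTGTATATAcggagcaaact
MRPL1, element 1 (chrIV:682668-682697, minus strand): acttttttaatTGTATATAtatatatactg
MRPL1, element 2 (chrIV:682619-682648, minus strand): atataaaatcaTGTACATAcaaagtaaccg
MRPS12 (chrXIV:694269-694298, minus strand): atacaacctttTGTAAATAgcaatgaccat
RSM10 (chrIV:540462-540491, plus strand): gatttcgtactTGTAAATAaaataggtgaa
MRP2 (chrXVI:876214-876243, minus strand): ggatacgcactTGTAAATAaatacatgata
RSM27 (chrVII:922547-922576, plus strand): aactcatttcaTGTACATAcaaaatcaaaa
RSM19, element 1 (chrXIV:695022-695051, minus strand): gggatctagTGTATATAgatttctagatga
RSM19, element 2 (chrXIV:694996-695025, minus strand): atgatatatcaTGTAAATAagatcaagcca
RSM19, element 3 (chrXIV:694968-694997, minus strand): cagactcgggcTGTATATAtatatatatat

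The 64 genes held 78 elements, 51 genes with 1, 12 with 2 and RSM19 with 3. The first base of the first element lay a median of 51 bases after the stop codon, from 8 to 139, and within 100 bases in 60 of the 64. Its quartiles were 33 and 73.25 bases. Of the sites above, the first lay at 73 bases in MRP20, 38 in MRPL1, 50 in MRP2, 59 in RSM10 and 51 in RSM27, within the quartiles, while those of MRPS12, at 74 bases, and RSM19, at 10, lay outside them. The base written N was A in 36 elements (46.2%), T in 24 (30.8%), C in 17 (21.8%) and G in 1 (1.28%). In the 844 elements of other genes it was T most often (51.3%), then A (26.5%), C (15.8%) and G (6.40%). A C stood 2 bases before the element in 51 of the 78 (65.4%), as in the MRP2, MRP20 and RSM10 sites, against 205 of the 844 (24.3%). These are matches of letters, and binding was not measured.

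The element was also frequent in other genes of mitochondrial translation, but not in respiratory or cytosolic ribosomal protein genes. It was present in 12 of 12 tested mitoribosomal subunit genes with other kinds of name, such as NAM9, IMG1 and YML6. All 13 mitochondrial tRNA synthetase genes had it, as did 9 of 12 translation factors, 12 of 16 activators of single mitochondrial mRNAs and 5 of 7 assembly factors. Nuclear genes of the respiratory chain had it in 6 of 39 cases (15.4%), close to the 14.2% of all tested genes, and genes of cytosolic ribosomal proteins in 6 of 138 (4.35%). None of 7 regulators, PUF3 among them, carried one.

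**Figure D1:**
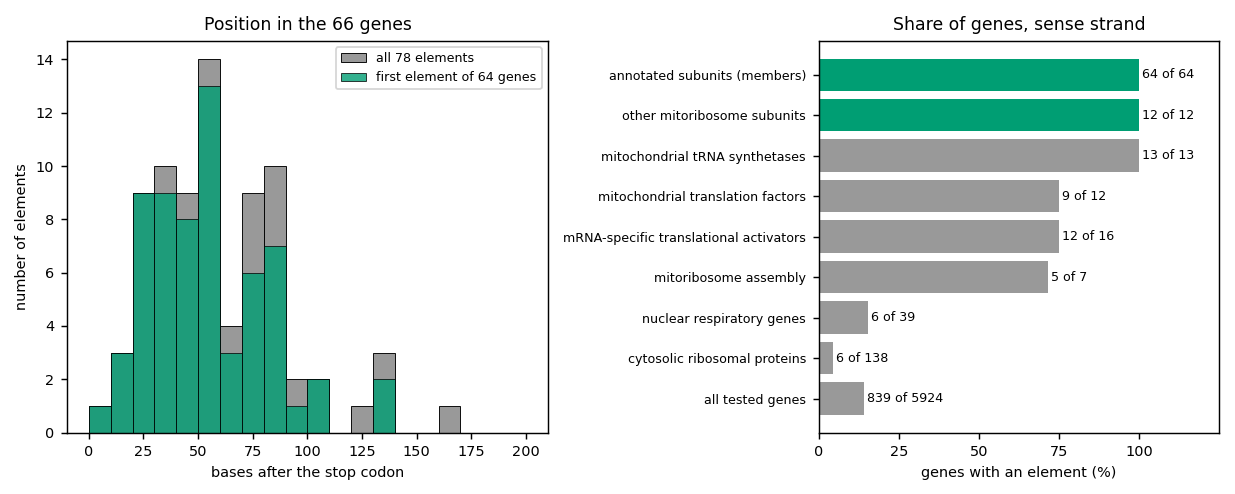
Left, the distance in bases from the stop codon to the first base of each of the 78 elements, with the first element of each of the 64 genes in green and further elements in grey. Right, the share of tested genes, in percent, with at least 1 element on the coding strand within 200 bases after the stop codon; bars reach 100% for the 64 annotated subunits, the 12 other mitoribosome subunits and the 13 tRNA synthetases, against 839 of 5924 tested genes.

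Promoter windows, from 250 bases before to 50 after the start codon, showed no motif held by most of the genes among the 4 searched on both strands. AATTTT occurred in 27 of the 66 (40.9%), against 51.8% of 6000 genes. AAAATTTT, which contains AATTTT, occurred in 4 (6.06%, against 8.98%). CCAAT, the core bound by the Hap complex, occurred in 27 (40.9%, against 43.2%). TGACTC, the Gcn4 core, occurred in 1 (1.52%, against 7.93%).

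The genes were scattered over 14 chromosomes, with 12 on chromosome IV, 9 on XIV and 8 on XI. The 1 pair of direct neighbours was MRPS12 and RSM19 on chromosome XIV, both on the minus strand with 229 bp between them. Only MRPL44 had a coding sequence in 2 parts. The coding sequences of MRP4, MRPL19 and MRPL51 overlap another annotated reading frame by 2, 113 and 323 bp. The sources used here do not give whether strand was used in counting, so the values of MRP4 and MRPL51, which overlap frames on the opposite strand, are uncertain. MRPL19 overlaps a frame on its own strand, so its value is uncertain whether or not strand was used.

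Sequencing depth was high for every one of these genes. Totals of estimated counts, in units of 1e6, were 56.8, 58.3 and 57.0 for the producer and 57.5, 48.7 and 48.4 for the parent. The lowest estimated count of any of the 66 genes in any library was 730, for MRP2. Nothing in the labels says that the replicates were grown separately, so the p-values reflect the spread between these libraries, which could be technical. The 7 marker genes of a-type cells summed to 603 to 683 CPM (counts scaled to a library total of 1e6) in the producer and 615 to 646 in the parent. The 4 marker genes of α-type cells summed to 142 to 148 CPM in the producer and 119 to 132 in the parent, most of it from SAG1, and MF(ALPHA)1, the main α-factor gene, lay at 0.866 to 1.67 CPM in the producer and 1.27 to 2.96 in the parent. In the tests described below, edgeR with all libraries and limma-voom called 0 of these markers. DESeq2 called MFA1, MFA2 and SAG1 higher in the producer, where 7.16% of all tested genes were. Without parental replicate 1 edgeR called SAG1 higher, where 9.47% were. Parental replicate 1 stood apart from the other 2 parental libraries in how values depended on GC content, which is described with the strain comparison. These are bulk measurements, in which fewer cells and less RNA per cell cannot be told apart.

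Together the 66 genes made up 0.595, 0.559 and 0.585% of all counts in the producer libraries, against 0.583, 0.649 and 0.617% in the parental ones. After scaling by TMM, their summed level was 6094, 5720 and 5874 CPM in the producer and 5916, 6147 and 6106 CPM in the parent. The strains overlapped, since producer replicate 1 lay above parental replicate 1. Genes annotated to the large subunit summed to 3017, 2816 and 2881 CPM in the producer and 2885, 2982 and 2979 CPM in the parent. Those of the small subunit summed to 2686, 2522 and 2599 CPM in the producer and 2622, 2711 and 2679 CPM in the parent, so the strains overlapped in both subunits.

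Per kilobase of coding length, which leaves out the untranslated ends, the level of the 66 genes had a median of 116 CPM per kb over the 6 libraries. This was above the median of all tested genes (76.9), and below those of cytosolic ribosomal protein genes (437) and nuclear respiratory genes (373). Mitochondrial tRNA synthetases (46.1), translation factors (41.7) and mRNA-specific activators (56.8) had lower medians. The lower and upper quartiles of the 66 genes were 91.6 and 158 CPM per kb. Level and coding length were weakly related across the 66 genes (Spearman rho -0.12), as were level and GC content (0.12).

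Most subunits lay within a narrow band, with a few above and below it. RSM10, a universal protein of the small subunit (uS10m), had 365 ± 17.1 CPM per kb in the producer and 385 ± 23.9 in the parent (SD, n = 3 each). RSM18, the small-subunit protein bS18m, followed with 231 ± 8.37 CPM per kb in the producer and 209 ± 12.7 in the parent. MRPL36, the large-subunit protein bL31m, had 206 ± 3.52 CPM per kb in the producer and 220 ± 7.34 in the parent. RSM10 thus stood clear of every other annotated subunit in all 6 libraries, while RSM18 and MRPL36 overlapped in the parental libraries. At the low end stood MRP2, the universal small-subunit protein uS14m, with 39.4 ± 3.09 CPM per kb in the producer and 54.1 ± 7.65 in the parent. MRPL32 (bL32m), a large-subunit protein that needs cleavage by a mitochondrial protease before it is assembled, had 57.7 ± 2.55 CPM per kb in the producer and 74.1 ± 13.7 in the parent.

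Among annotated subunits the largest level was 8.03 times the smallest. Large-subunit genes by annotation had a median of 106 CPM per kb and ranged from 65.9 to 213, and small-subunit genes had a median of 124 and ranged from 46.7 to 375. The 27 universal proteins had a median of 133 CPM per kb, the 13 shared with bacteria 122 and the 24 found only in mitochondria 106. Of the mitochondria-specific proteins, MRP10 (mS37), a small protein folded by the import machinery of the intermembrane space, had 179 CPM per kb, the highest mean over the 6 libraries, and MRPL35 (mL38) the lowest, 66.1. In the parent alone MRPL31 (192) lay above MRP10 (181), and MRP13 (70.4) lay just below MRPL35 (70.7). MRP8, the gene without a subunit annotation, was above all subunits, at 436 ± 6.42 CPM per kb in the producer and 487 ± 23.2 in the parent (SD, n = 3 each). RSM22, annotated as a tRNA methyltransferase, was next to the lowest of the 66, with 53.6 ± 1.09 CPM per kb in the producer and 61.5 ± 5.01 in the parent.

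**Figure D2:**
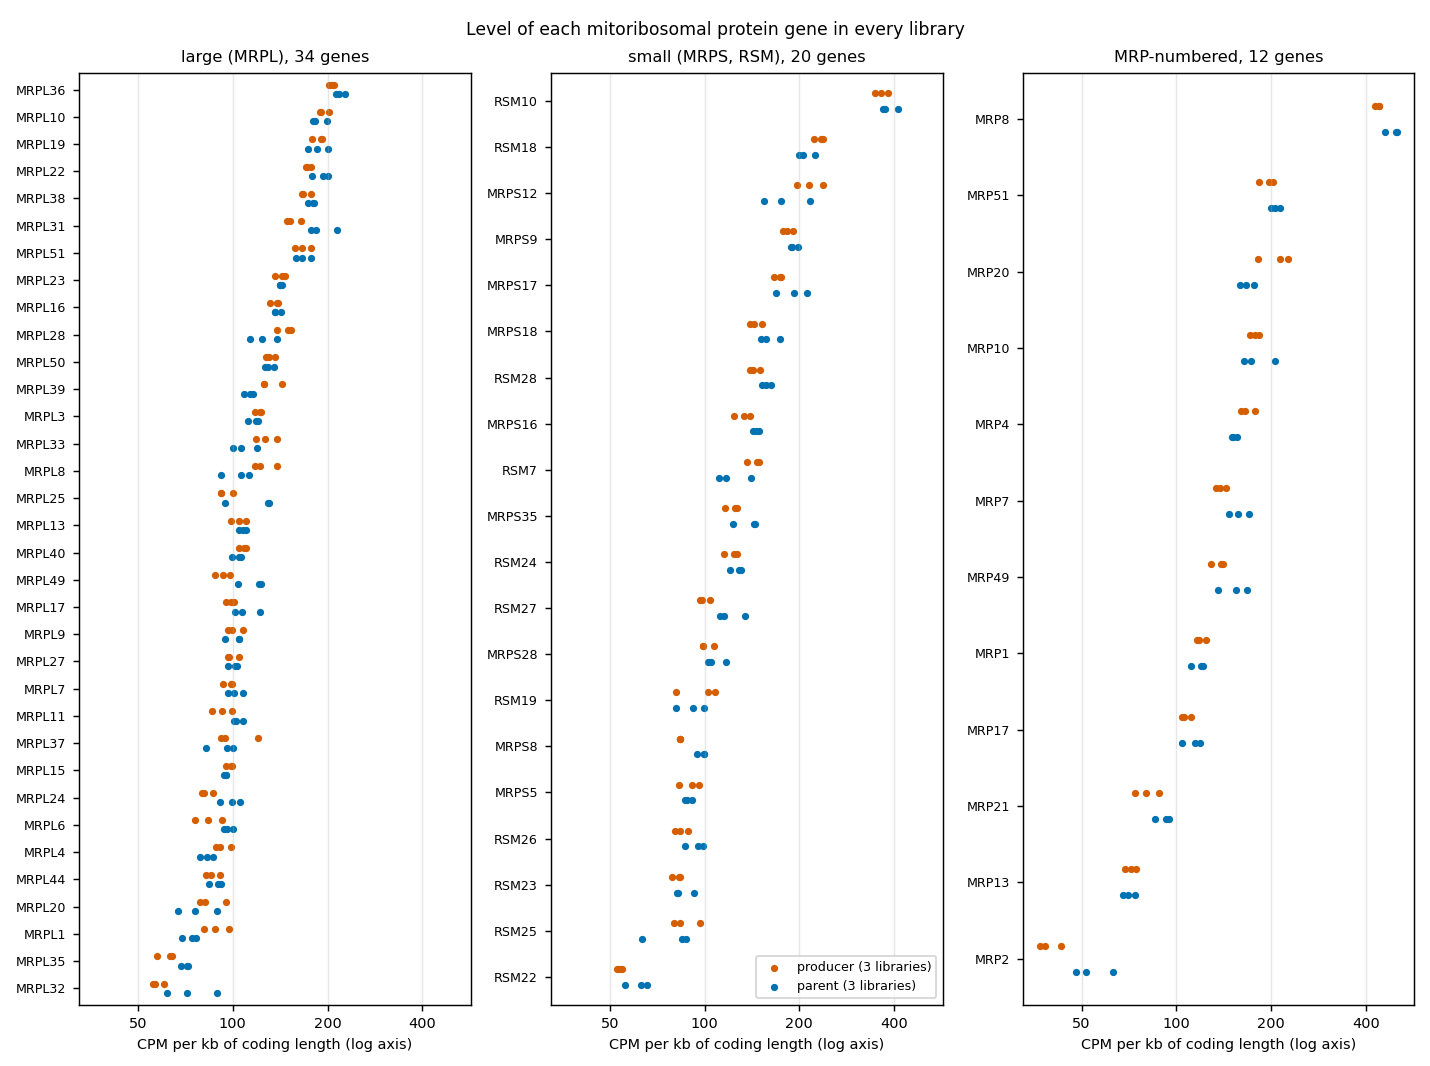
Level of each of the 66 genes in CPM per kb of coding length (log axis), 1 point per library, with the 3 producer libraries in orange above the 3 parental libraries in blue, and the genes of each name class ordered by mean level. MRP8 and RSM10 lie to the right of all others, MRP2 lies at the left, and for most genes the points of both strains overlap.

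No gene of the 66 passed the test between the strains. In edgeR's quasi-likelihood test, adjusted over the 6125 genes tested, 0 of the 66 were higher and 0 lower in the producer at an adjusted p under 0.05, where 0.800% of all tested genes were higher and 0.343% lower. All 66 entered the test, and the smallest adjusted p among them was 0.0851, for MRP2. At an unadjusted p under 0.05 there were 21 of the 66, 8 higher and 13 lower, against 27.3% of all tested genes. With limma-voom 0 passed. DESeq2 called MRP20 and MRPL1 higher (all tested genes: 7.16%) and MRP2, MRPL24, MRPL31, MRPL49 and MRPS8 lower (5.69%). Leaving out parental replicate 1, edgeR called 5 of the 66 higher (MRP20, MRPL8, MRPL28, MRPS12 and RSM7), where 9.47% of all tested genes were called, and 7 lower (MRPL24, MRPL25, MRPL31, MRPL32, MRPL49, MRPS35 and RSM22), where 8.06% were. In each of these 4 counts the share of the 66 was between 3.03% and 10.6%.

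The differences were small. The median log2 fold change, producer over parent, was -0.06 over the 66 genes and -0.01 over all tested genes, with 25 positive values and 41 negative. Values ran between -0.46 for MRP2 and 0.31 for MRP20. The 95% interval lay inside a 1.5-fold change in either direction for 63 of the 66 genes, and inside 2-fold for all 66. In CPM, all 3 producer libraries lay above all 3 parental ones for 7 of the 66 genes, against 16.6% of all tested genes, and below them for 18, against 17.2%.

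Among proteins found in all ribosomes, the extremes lay on both sides. MRP20, the uL23m protein at the exit of the peptide tunnel, had 169, 144 and 180 CPM in the producer and 139, 126 and 132 CPM in the parent. All producer values were above the parental ones, and the log2 fold change was 0.31 ± 0.09 (SE; edgeR adjusted p = 0.0896). MRPL1, the uL1m protein of the mobile stalk, had 83.5, 69.5 and 75.1 CPM in the producer and 65.4, 59.3 and 63.6 CPM in the parent, again without overlap (0.28 ± 0.09, edgeR adjusted p = 0.0992). MRPS12 (uS12m), a protein of the decoding centre, had 110, 99.4 and 90.7 CPM in the producer and 99.7, 71.5 and 80.8 CPM in the parent. Here parental replicate 1 lay among the producer values, and the log2 fold change was 0.25 ± 0.12. RSM7 (uS7m), of the head of the small subunit, had 111, 101 and 109 CPM in the producer and 104, 82.5 and 86.8 CPM in the parent, with the same parental library among the producer values (0.23 ± 0.09).

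On the other side, MRP2 had 13.3, 14.9 and 12.9 CPM in the producer and 17.9, 21.8 and 16.7 CPM in the parent. The strains did not overlap, and the log2 fold change was -0.46 ± 0.13 (edgeR adjusted p = 0.0851). MRPS8, the universal small-subunit protein uS8m, had 39.1, 39.2 and 39.2 CPM in the producer and 44.2, 46.7 and 46.4 CPM in the parent (-0.23 ± 0.07, edgeR adjusted p = 0.106). MRPL33 (uL30m), by contrast, had a positive value, with 35.9, 33.1 and 30.9 CPM in the producer and 31.2, 26.2 and 27.7 CPM in the parent (0.23 ± 0.10). MRPS8 was without overlap, and MRPL33 overlapped by 1 parental library. Many universal proteins hardly differed. MRPL9 (uL3m), next to the centre of peptide bond formation, averaged 81.9 CPM in the producer and 82.0 CPM in the parent, and MRPL23 (uL13m) averaged 69.9 CPM in the producer and 69.8 CPM in the parent. MRP4 (uS2m), whose coding sequence overlaps another by 2 bp, had 211, 190 and 195 CPM in the producer and 178, 184 and 180 CPM in the parent, without overlap (0.14 ± 0.07).

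Proteins shared only with bacterial ribosomes included several of the more negative values. MRPL49 (bL21m) had 47.7, 45.4 and 42.8 CPM in the producer and 50.6, 58.8 and 60.0 CPM in the parent, with a log2 fold change of -0.32 ± 0.09 (edgeR adjusted p = 0.0874). MRPL32 had 30.7, 33.4 and 31.3 CPM in the producer and 34.1, 49.0 and 39.5 CPM in the parent (-0.36 ± 0.13). MRPL24 (bL28m) had 62.8, 62.2 and 67.1 CPM in the producer and 70.7, 82.1 and 77.2 CPM in the parent (-0.26 ± 0.08). In these 3 genes the strains did not overlap, and parental replicate 1 was the parental library nearest to the producer. MRPL8 (bL17m) went the other way, with 98.7, 84.3 and 87.2 CPM in the producer and 80.9, 65.6 and 76.1 CPM in the parent and no overlap (0.28 ± 0.10). RSM18 had 99.4, 92.7 and 97.5 CPM in the producer and 93.3, 85.5 and 83.1 CPM in the parent, an overlap of 1 library (0.15 ± 0.07). MRP7 (bL27m), which in bacteria reaches the centre of peptide bond formation, had 161, 149 and 153 CPM in the producer and 163, 190 and 175 CPM in the parent, without overlap (-0.19 ± 0.07). MRP17 (bS6m), MRP21 (bS21m), MRP51 (bS1m) and MRPL50 (bL9m) overlapped between the strains, with log2 fold changes between -0.17 and 0.01. The median over all 13 was -0.09.

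Mitochondria-specific proteins spread least, with a standard deviation of the log2 fold changes of 0.146, against 0.198 for the bacterial-type and 0.179 for the universal proteins. Their most negative value was that of MRPL25 (mL59), with 47.4, 43.5 and 43.6 CPM in the producer and 44.8, 61.7 and 61.1 CPM in the parent, so that parental replicate 1 fell among the producer libraries (-0.32 ± 0.12). MRPL31 (mL60) had 60.2, 58.8 and 65.2 CPM in the producer and 70.1, 85.0 and 72.7 CPM in the parent (-0.31 ± 0.09). RSM27 (mS33) had 34.6, 32.3 and 32.7 CPM in the producer and 37.2, 44.7 and 38.5 CPM in the parent (-0.27 ± 0.09). Both were without overlap. MRPL28 (mL40) lay above the parent, with 66.6, 61.5 and 68.1 CPM in the producer and 61.3, 54.9 and 50.4 CPM in the parent (0.24 ± 0.09), where the ranges nearly touched. RSM25 (mS23) and MRPS35 (mS45), at 0.15 ± 0.13 and -0.16 ± 0.08, overlapped between the strains. MRP1 (mS43) and RSM26 (mS42), which resemble superoxide dismutases, had log2 fold changes of 0.02 ± 0.06 and -0.15 ± 0.08, and MRP10, MRP13 (mS44) and MRP49 (mL61) had -0.03, 0.02 and -0.17.

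The genes with no subunit annotation also had lower values in every producer library. MRP8 had 290, 283 and 291 CPM in the producer and 304, 331 and 329 CPM in the parent (-0.16 ± 0.07, edgeR adjusted p = 0.176). RSM22 had 101, 99.1 and 103 CPM in the producer and 106, 124 and 118 CPM in the parent (-0.20 ± 0.07, edgeR adjusted p = 0.132). Neither passed the edgeR test with all libraries.

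**Figure D3:**
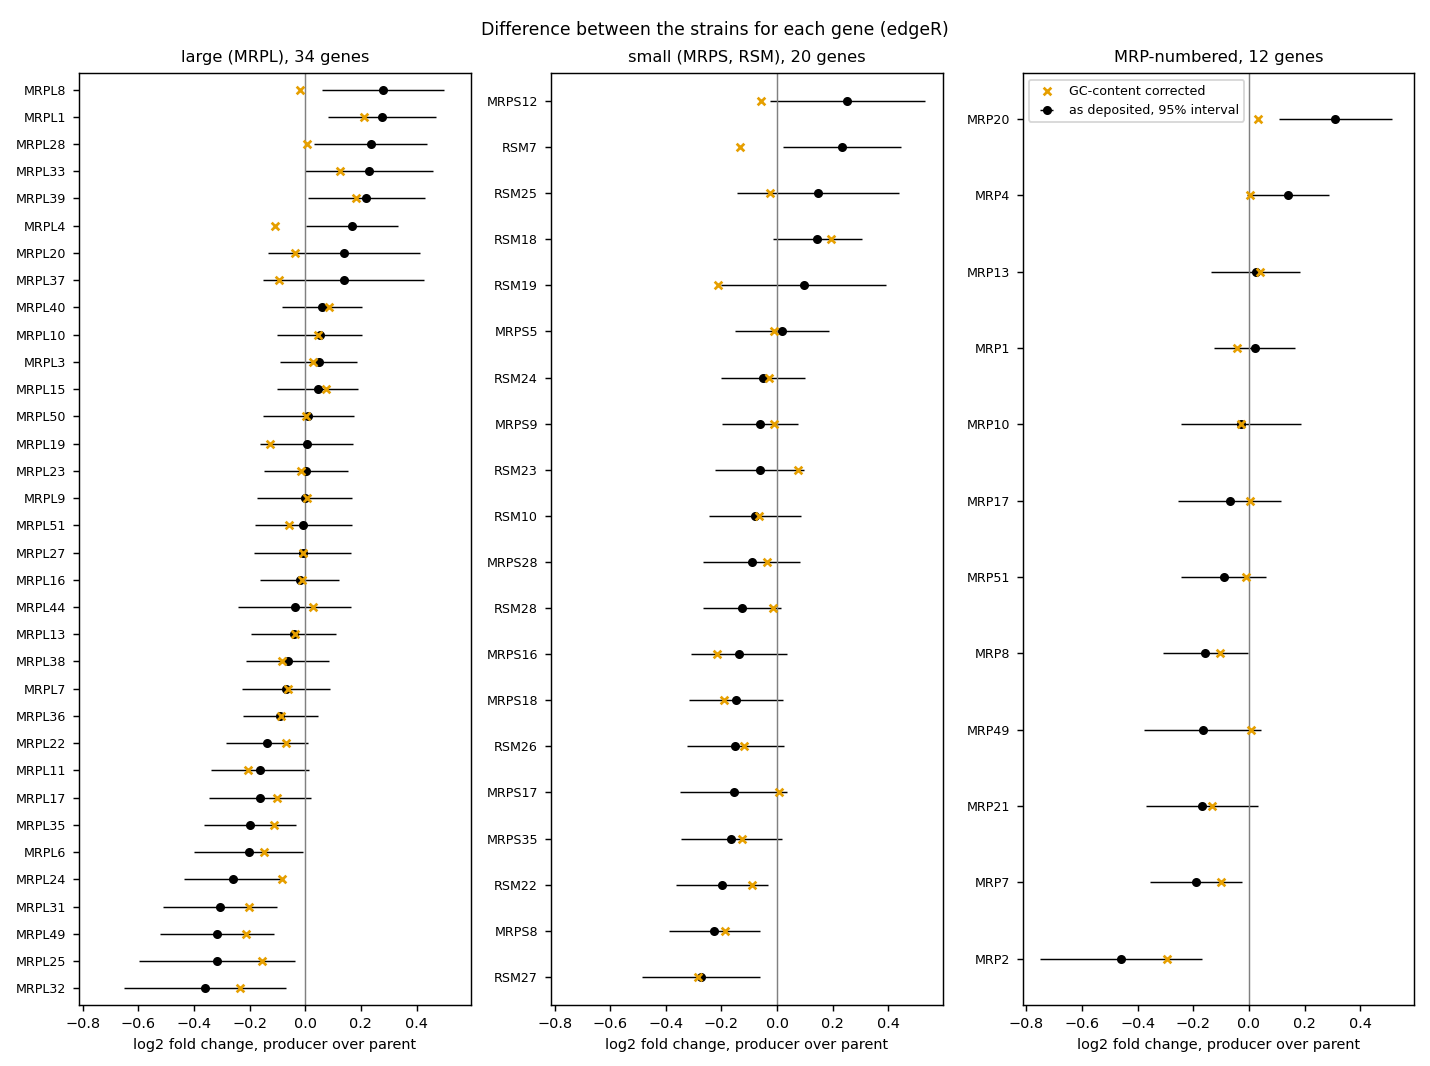
Log2 fold change of each gene, producer over parent, from edgeR (black, with the 95% interval) and after the GC-content correction (orange crosses). Values as deposited run between -0.46 (MRP2) and 0.31 (MRP20), and the crosses lie in a narrower range.

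The direction of the difference followed the base composition of the gene. Across the 66 genes the log2 fold change and GC content had a Spearman rho of 0.78 (Pearson 0.76), and across 5988 tested genes with a known GC content rho was 0.65. Genes share libraries here, so these are descriptions without a test. The 13 of the 66 genes with at least 42% GC all had positive values (median 0.17) and the 11 under 38% all had negative ones (median -0.26), limits that were chosen after the values were seen. RSM7, at 52.0% GC, MRPS12, at 49.4%, MRPL8, at 48.7%, and MRP20, at 47.7%, belong to the first set. MRP2, at 36.5%, MRPL24, at 36.2%, and MRPL32, at 37.5%, belong to the second. MRPL1, at 41.5%, and RSM27, at 40.2%, lie between the limits.

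The dependence on GC was present between libraries of the same strain as well. Each library's deviation from the mean of all 6 correlated with GC content over the 66 genes with rho 0.78, 0.56 and 0.52 for the producer and 0.12, -0.76 and -0.63 for the parent. Parental replicate 1 thus lay between the producer and the other parental libraries. When a smooth trend on GC content was taken out of each library, rho over the 66 genes was 0.09, and the standard deviation of their log2 fold changes was 0.105, against 0.171 before. The median of the 13 GC-rich genes was then -0.04 and that of the 11 GC-poor genes -0.09. The correction is built to remove the relation to GC content, so the low rho and the closer medians largely follow from it. After this correction 0 of the 66 passed edgeR's test, 11 had an unadjusted p under 0.05, against 19.2% of tested genes, and all 66 intervals lay inside a 1.5-fold change.

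The correction changed single genes by different amounts. MRP20 had a corrected log2 fold change of 0.03 and MRPL8 of -0.02, RSM7 of -0.13 and MRPS12 of -0.06. The values of MRPL1 (0.21), RSM18 (0.20), RSM27 (-0.29), MRP2 (-0.29), MRPL32 (-0.23) and MRPL49 (-0.21) kept their sign. In corrected values the strains did not overlap for 6 genes above (all tested genes: 13.9%) and 14 below (12.4%). The trend with GC content moved with the strain, apart from parental replicate 1, and trend and strain cannot be told apart for the genes at either end of the GC range.

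**Figure D4:**
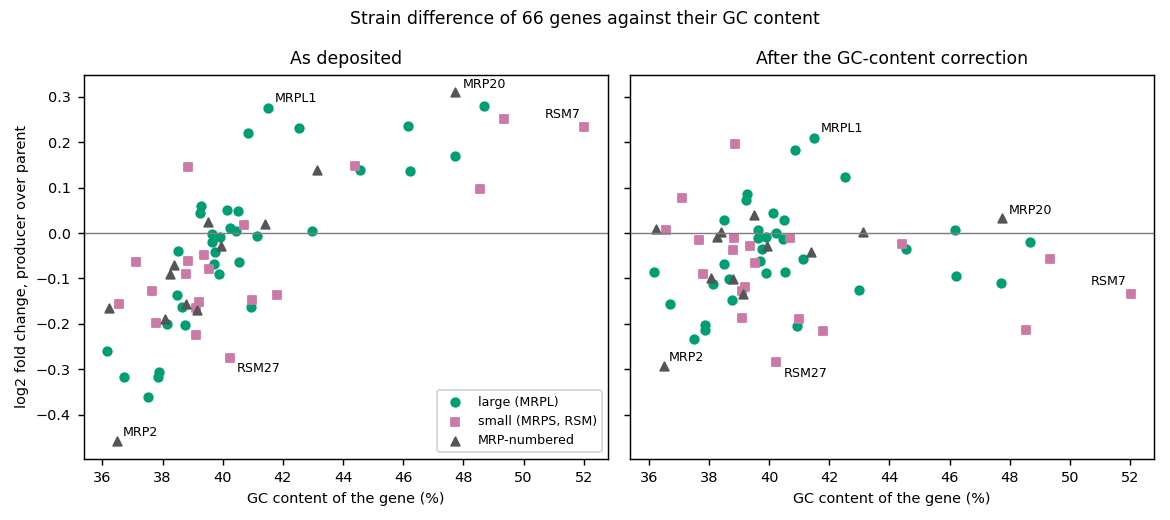
Log2 fold change, producer over parent, of the 66 genes against the GC content of the gene in percent, as deposited (left) and after the GC-content correction (right), with circles for MRPL, squares for MRPS and RSM, and triangles for MRP-numbered genes. Left, all 13 genes with at least 42% GC lie above 0 and all 11 under 38% below it, while on the right both sets have genes on either side of 0.

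The large and small subunits were set against each other by name, with 34 MRPL genes and 20 MRPS and RSM genes. The median log2 fold change was -0.01 for the large subunit, with 15 positive and 19 negative values, and -0.09 for the small, with 6 positive and 14 negative. In the large subunit 5 genes lay above the parent without overlap and 10 below. In the small subunit 0 lay above and 5 below. Over all tested genes these shares were 16.6% above and 17.2% below. Over the 12 MRP-numbered genes, 3 of the large subunit, 8 of the small and MRP8, the median was -0.08. With the GC-content correction the medians were -0.05 for the large and -0.06 for the small subunit.

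Within each library, the mean log2 CPM of the large-subunit genes minus that of the small-subunit genes was -0.367, -0.366 and -0.399 for the producer and -0.404, -0.406 and -0.398 for the parent. The means were -0.377 ± 0.0187 in the producer and -0.402 ± 0.00399 in the parent (SD, n = 3 each), a difference of 0.03 on the log2 scale. Producer replicate 3 lay within the range of the parental values, so the strains overlapped. After the GC-content correction the values were -0.359, -0.364 and -0.397 for the producer and -0.404, -0.408 and -0.405 for the parent, which did not overlap, and the difference was again 0.03. No test was made on these means, which are scores over the chosen genes.

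**Figure D5:**
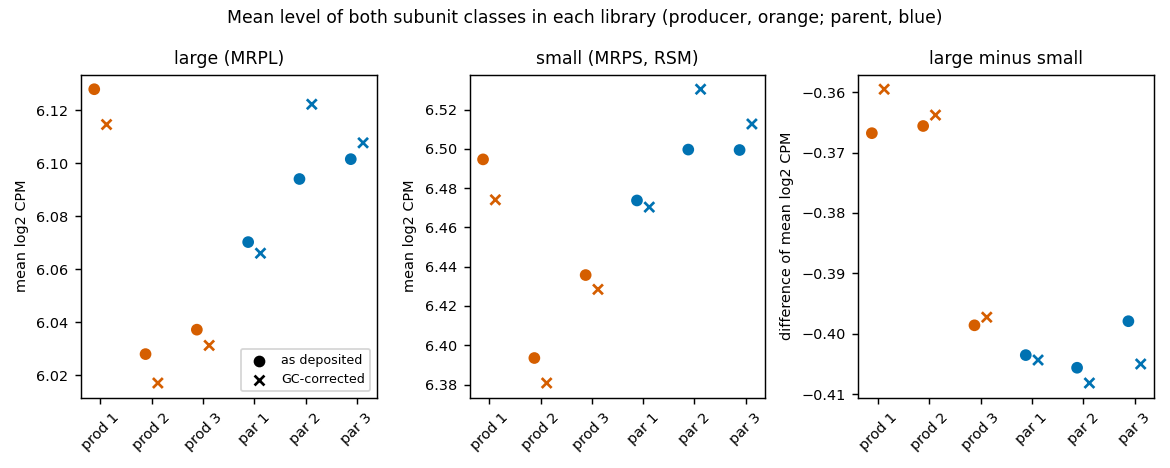
Mean log2 CPM of the 34 large-subunit genes, of the 20 small-subunit genes, and the difference between both means, in each producer library (orange, left) and each parental library (blue, right), as deposited (circles) and GC-corrected (crosses). The axes do not start at 0. In the difference, producer replicates 1 and 2 lie above the parental libraries, while replicate 3 lies among them as deposited and above them in GC-corrected values.

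In the other lists of mitochondrial translation, which were drawn up from background knowledge, no gene passed edgeR's test in the design with strain as the only term and all libraries. For comparison with the counts in all lists below, 845 of all 6125 tested genes were higher and 828 lower at an unadjusted p under 0.05. DESeq2 called 7.16% of all tested genes higher and 5.69% lower. Without parental replicate 1 edgeR called 9.47% higher and 8.06% lower. Of 12 tested subunit genes with other names, 0 passed edgeR's test (1 higher and 1 lower at an unadjusted p under 0.05). Their median log2 fold change was 0.02 as deposited and -0.06 after the GC-content correction. FYV4 (mS41) had 30.7, 32.1 and 32.6 CPM in the producer and 36.4, 50.2 and 45.4 CPM in the parent, without overlap (-0.47 ± 0.12, edgeR adjusted p = 0.0724, and -0.43 after the GC-content correction). IMG1 (bL19m), of 52.4% GC, had a log2 fold change of 0.36 ± 0.15 as deposited and -0.01 after correction. DESeq2 called FYV4 lower, limma-voom called 0, and without parental replicate 1 edgeR called IMG1 higher and FYV4 lower. EHD3 is listed at 0 in all 6 libraries and was not tested.

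Of 12 translation factors 0 passed, with 5 lower and 0 higher at an unadjusted p under 0.05. Their median was -0.17 as deposited and -0.11 after the GC-content correction. TUF1, the elongation factor that brings tRNAs to the mitochondrial ribosome, had 429, 425 and 431 CPM in the producer and 417, 369 and 401 CPM in the parent, without overlap (0.11 ± 0.08). RRF1, the ribosome recycling factor, had a log2 fold change of -0.32 ± 0.11, IFM1, the initiation factor, -0.31 ± 0.10 and MEF2, which acts in recycling, -0.31 ± 0.08. Corrected for GC content, RRF1 was at -0.08, IFM1 at -0.16 and MEF2 at -0.22. The highest corrected value of the 12 factors, TUF1 included, was 0.03. DESeq2 called 2 of the factors lower (MEF2 and IFM1), limma-voom 0, and edgeR without parental replicate 1 called 4 (MEF2, IFM1, RRF1 and HER2). Of 13 tRNA synthetases 0 passed, with 1 higher (MSK1, for lysine, 0.22 ± 0.08) and 3 lower (among them MSD1, for aspartate, -0.26 ± 0.07, and ISM1, for isoleucine, -0.19 ± 0.06) at an unadjusted p under 0.05. DESeq2, and edgeR without parental replicate 1, each called MSD1 lower, and limma-voom called 0.

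Among 16 activators of single mitochondrial mRNAs 0 passed, with 1 higher and 5 lower at an unadjusted p under 0.05. PET111, the activator of the COX2 mRNA, had 45.3, 46.8 and 41.8 CPM in the producer and 56.1, 71.3 and 60.7 CPM in the parent, without overlap (-0.49 ± 0.10, edgeR adjusted p = 0.0609, and -0.24 after the GC-content correction). SOV1 was at -0.46 ± 0.11 and PET309, the activator of the COX1 mRNA, at -0.34 ± 0.11, both as deposited. After the GC-content correction the lowest value of the 16 activators, SOV1 and PET309 included, was -0.24. DESeq2 called PET111, PET309 and SOV1 lower and PET122 higher, and limma-voom called 0. Without parental replicate 1 edgeR called 1 higher (PET122) and 5 lower. PET122, an activator of the COX3 mRNA that is named after its values were seen, was at 0.54 ± 0.18 as deposited and 0.14 after the GC-content correction. Of 7 assembly factors 0 passed, and of 4 genes of mitochondrial transcription and RNA decay 0 passed, with 0 in either list at an unadjusted p under 0.05, by DESeq2 or by limma-voom. Medians of log2 fold changes were -0.16 for the activators, -0.05 for the synthetases and -0.02 for the assembly factors. After the GC-content correction they were -0.020 for the activators, 0.005 for the synthetases and 0.004 for the assembly factors.

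The regulators and the targets of the pathway were measured in the same libraries. PUF3 itself had 76.5, 84.0 and 89.6 CPM in the producer and 93.2, 107 and 80.2 CPM in the parent, which overlapped (-0.17 ± 0.11). HAP3, a subunit of the CCAAT-binding complex, was at 0.27 ± 0.09 as deposited and -0.02 after correction, and 0 of 7 regulators passed in edgeR, DESeq2 or limma-voom (1 higher and 0 lower at an unadjusted p under 0.05). The mRNAs that mitochondrial ribosomes translate were nearly missing from these mRNA libraries. The 8 genes of mitochondrial DNA summed to between 0 and 17 counts per library, with VAR1, the 1 ribosomal protein encoded there, at 0 in all 6. Their levels could therefore not be compared, and whether such libraries capture these mRNAs was not tested. Of 39 tested nuclear respiratory genes, 0 were higher and 1 was lower in edgeR's test, COX6, a subunit of cytochrome c oxidase, which fell to 120 ± 3.92 CPM in the producer, against 151 ± 6.50 CPM in the parent (SD, n = 3 each; edgeR adjusted p = 0.0455). DESeq2, and edgeR with the GC-content correction, also called COX6 lower, and limma-voom called 0 of the respiratory genes. Without parental replicate 1 edgeR called QCR6 higher and COX6 lower. QCR8 is listed at 0 in all 6 libraries, which, as for EHD3, may be a failed estimate. Of 138 cytosolic ribosomal protein genes, 0 were higher and 1 lower, RPS25B (-0.40 ± 0.07, edgeR adjusted p = 0.0438), 1 of a pair of near-identical genes between which reads may be split. Other fits gave other counts for this list: limma-voom called RPS25B lower, DESeq2 6 genes lower, the GC-content correction 3 lower, and edgeR without parental replicate 1 called 2 higher and 3 lower. Set beside both groups, the 66 genes had a median log2 fold change of -0.06, against 0.02 for the respiratory genes and -0.07 for the cytosolic ribosomal proteins. After the GC-content correction the median was -0.039 for the 66 genes, -0.051 for the respiratory genes and -0.035 for the cytosolic ribosomal proteins.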

How the data were processed

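Each library has 1 deposited table of estimated counts by gene, already whole, so rounding changed nothing. Per the file headers, the authors derived them from StringTie transcript files after duplicate removal. The tools, per the submitters' processing notes, were HISAT2, SAMtools, Picard, FastQC and DESeq2, and the build was sacCer3. The sources used here give neither versions nor the use of strand.

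The 6 tables (6445 genes) were joined by gene name, and 6129 names, all 66 mitoribosomal ones included, matched RefSeq annotation of the R64 assembly. RefSeq product names gave the subunit and origin of each gene. The test was edgeR 4.0.16 in R 4.3.3 (quasi-likelihood, robust, two-sided) with filterByExpr, TMM scaling and strain as the only term, adjusted by Benjamini-Hochberg over 6125 genes. An adjusted p under 0.05 passed. CPM values are TMM-scaled. Mean log2 CPM used a prior count of 2. The GC-content correction took a loess trend of span 0.5, drawn on genes with 5 CPM or more, out of every library for the 5988 tested genes (97.8%) with a known GC content. limma 3.58.1 (voom), DESeq2 1.42.0, other scalings, filters and covariates, the replicate block and each library left out were alternatives.

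The rule for named genes took every MRP-numbered gene, the 4 highest and 4 lowest log2 fold changes each of MRPL and of MRPS with RSM, the 3 highest and 3 lowest levels per kb, up to 3 genes of smallest p in each other list, and PUF3, TUF1 and VAR1. Other genes are named for their level, position, DESeq2 or left-out-library calls, or as examples, chosen after their values were seen. The genes and lists were chosen with earlier results of these data known. MTG3, of the assembly list, was not analysed here. Element and motif searches used the R64 sequence.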

Additional observations from a re-analysis of the deposited data

How the results depend on the processing

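Across 18 refits and 1 change of subunit assignment, the difference between large and small subunit stayed between 0.02 and 0.04 (log2). Scaling shifts both classes alike within a library, so the refits that changed only the scaling could hardly move this difference. The number of the 66 genes called in edgeR was 0 higher and 0 lower with each other scaling, filter, covariate, GC-content correction and block, and with limma-voom. DESeq2 called 2 higher and 5 lower. Leaving out each library in turn gave 0 to 5 higher and 0 to 7 lower, and the counts above 0 came without parental replicate 1. The median of the large-subunit genes was -0.0568 and that of the small-subunit genes -0.136 when only library totals were used for scaling. When the library total (log2) entered as a covariate, the small-subunit median was -0.0091. The cause of these shifts was not tested. With the GC-content correction, MRP1 (-0.0418), MRP17 (0.0031), MRP49 (0.0084), MRPL8 (-0.0204), MRPS12 (-0.0582), RSM25 (-0.0240) and RSM7 (-0.134) reversed. In the replicate block with this correction they lay at -0.0418 (MRP1), 0.0058 (MRP17), 0.0077 (MRP49), -0.0207 (MRPL8), -0.0582 (MRPS12), -0.0192 (RSM25) and -0.135 (RSM7). With library totals only, MRP1 was at -0.0276 and MRP13 at -0.0263, and with the covariate MRP10 was at 0.0387 and MRP49 at 0.0098. With a library left out, MRP1 ranged between -0.0158 and 0.0462, MRP10 between -0.0872 and 0.0730 and MRP13 between -0.0049 and 0.0582. None of the reversed values passed the test, and 482 of the values of the named genes kept both direction and call, 17 gained a call and 23 reversed. A pairing of the libraries by the replicate numbers shared by both strains was not seen. Deviations of same-numbered libraries correlated at 0.24, -0.23 and -0.46, and not every library correlated best with its own number. With 3 libraries a strain these correlations depend on each other, so they cannot exclude a pairing. With the replicate number as a block, 0 of the 66 genes were called, and the median was -0.01 for the large and -0.08 for the small subunit. In the other lists the block added calls of PET122 (higher) and PET111 (lower) among the activators and lost that of COX6, leaving 0 respiratory genes called. The lowest estimated count of the 66 genes was 730.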
